A study of Danio rerio with 15 samples.

Results

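The question here was which transcripts differed from control in whole zebrafish larvae over both concentrations of sertraline. The mean of the 6 arrays of larvae kept in sertraline, with each concentration given the same weight, was compared with the mean of the 3 control arrays. These are 9 of the 15 arrays of the study, and the other 6 are of larvae kept in fluoxetine. Zebrafish larvae (Danio rerio, no strain or genotype given in the labels) were 72 h old after fertilisation when exposure began. They were held for 96 h in 200 ml of water with 25 µg/L sertraline, 250 µg/L sertraline or no drug, and so were about 168 h (7 days) old at the end. The larvae of every group, controls included, were not fed and lived on their yolk. Each array was hybridised with RNA from the pooled larvae of 1 beaker (about 100 larvae), and each group had 3 beakers, so p-values measure the spread between beakers. Sertraline is the only agent that separates these groups in the labels, and no carrier solvent is named for the drug or for the control.

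Sertraline is a selective serotonin reuptake inhibitor, an antidepressant that blocks the transporter which clears serotonin from the synapse. In fish as in mammals serotonin neurons act on the hypothalamus and so on the stress axis, whose end product in zebrafish is cortisol. Cortisol acts through the glucocorticoid receptor, a transcription factor that switches on genes such as fkbp5 and klf9 and takes part in the control of glucose and amino acid use during fasting. Insulin acts in the opposite direction on many of the same metabolic genes, through phosphatidylinositol 3-kinase (PI3K).

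The values are log2 intensities as deposited, 1 per probe set and array, and a difference of 1 is a change of 2-fold. Array medians lay between 4.57 and 4.65, and pairs of the 9 arrays correlated at r = 0.991 to 0.997 over probe sets, which are not independent replicates. Markers of several larval tissues were bright in control, among them the muscle creatine kinase gene ckma (13.93), the synaptic gene snap25a (12.17), the keratin gene krt4 (11.68), the liver gene fabp10a (10.37) and the cone opsin gene opn1sw2 (11.59). The probe sets of insulin (ins, 2.45), glucagon (gcga, 1.85), the globin gene hbaa1 (1.9) and the neutrophil gene mpx (2.91) were dim, so those cells are poorly represented by these markers. A sign of RNA quality moved with the treatment. The 3' minus 5' difference of the GAPDH control probe sets, which grows as RNA is shortened, was 2.18 ± 0.5 (SD, n = 6; 1.77 to 3.16) in the sertraline arrays and 1.66 ± 0.09 (SD, n = 3; 1.55 to 1.73) in the control arrays. All 6 sertraline arrays lay above all 3 control arrays (difference 0.52, exact two-sided permutation p = 0.0238, the smallest that 6 against 3 arrays can give). The same measure for actin (acta1) was 7.71 ± 0.89 (SD, n = 6) against 7.24 ± 0.34 (SD, n = 3), with overlapping groups and exact permutation p = 0.429. The second array of 250 µg/L sertraline was the highest of the 9 in both measures (3.16 for GAPDH and 9.46 for acta1).

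**Figure D1:**
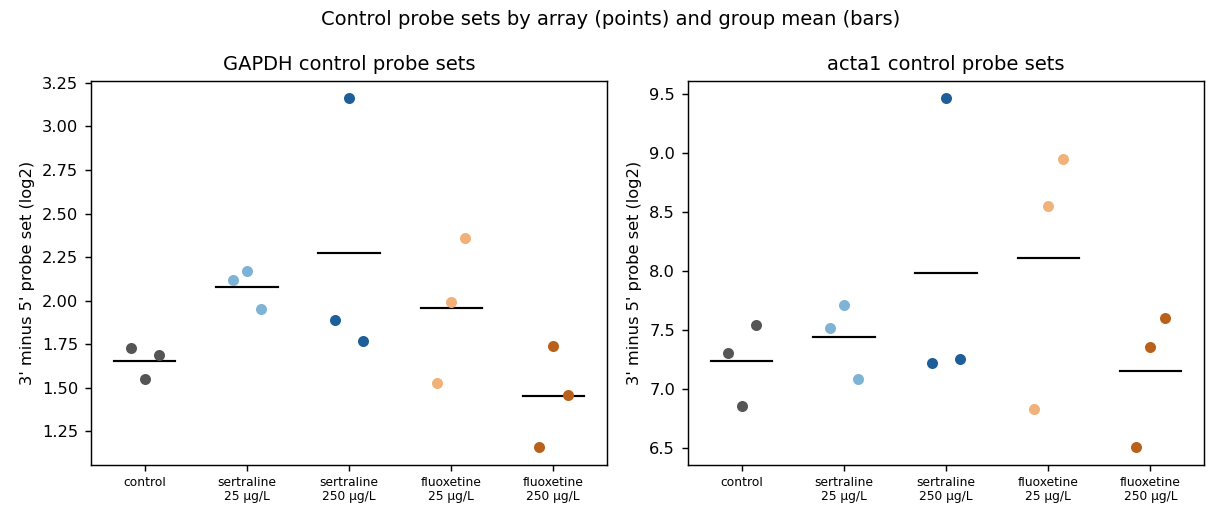
The 3' minus 5' difference (log2) of the GAPDH and acta1 control probe sets is plotted for each of the 15 arrays (points), with the group mean as a bar. All 6 sertraline arrays lie above the 3 control arrays for GAPDH, and the second array at 250 µg/L stands highest among them in both panels.

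At the threshold of the test 3 transcripts fell in sertraline and none rose. The 3 were pik3r3a, a regulatory subunit of PI3K, fkbp5, a cochaperone of the glucocorticoid receptor, and slc3a2b, the heavy chain of amino acid transporters of the cell membrane. They were 3 of the 15502 probe sets tested (0.0194%; limma, Benjamini-Hochberg adjusted p under 0.05 over all probe sets), and with the GAPDH difference as a covariate the count was 0. Under that covariate the differences were -1.14 for pik3r3a, -1.69 for fkbp5 and -0.5 for slc3a2b. With the 9 sertraline and control arrays fitted alone in limma, none of the 3 passed (adjusted p = 0.0567, 0.0905 and 0.112 in that order). After quantile normalization pik3r3a passed, and fkbp5 (0.07) and slc3a2b (0.0685) did not. Some other settings called rises as well, such as 5 higher and 7 lower without the 40% dimmest probe sets and 8 higher and 21 lower with array weights. At an unadjusted p under 0.05 there were 854 probe sets (5.51%), 261 higher (1.68%) and 593 lower (3.83%). The split between directions depended on the scaling, with 313 higher and 442 lower after median centring and 359 higher and 451 lower after quantile normalization. The differences were small: 795 of the 854 were under 1.5-fold, 14 reached 2-fold, and the median size was 0.26 on the log2 scale. In 137 probe sets (0.884%) all 6 sertraline arrays lay above all 3 control arrays, and in 407 (2.63%) all 6 lay below. This split also depended on the scaling. It was 174 above and 245 below after median centring, and 249 above and 254 below after quantile normalization. The typical unadjusted 95% interval of a pooled difference was 0.206 to either side, so a shared change smaller than this could usually not be told from 0 even without adjustment. The adjusted threshold asked for more. The smallest of the 3 calls, slc3a2b, was -0.57 (SE 0.079), while foxg1b at -0.88 (SE 0.15) did not pass. Over all 15502 probe sets the median pooled difference was -0.03.

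**Figure D2:**
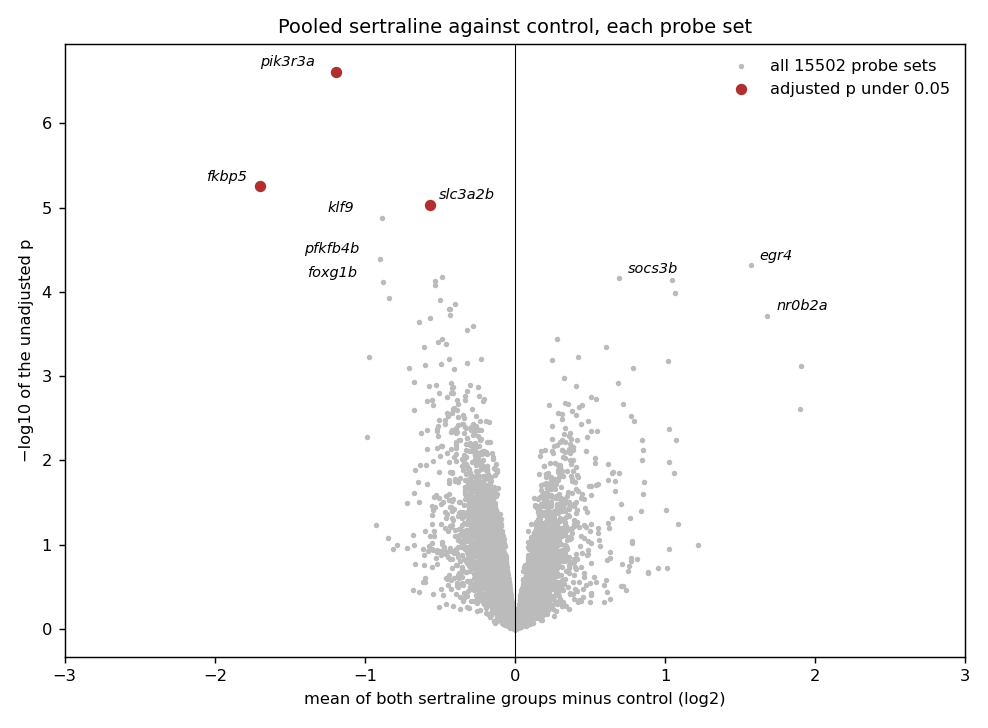
Each of the 15502 probe sets is drawn by its pooled difference (mean of both sertraline groups minus control, log2, x axis) and its unadjusted p (minus log10, y axis), with the 3 probe sets that passed in red. The red points, pik3r3a, fkbp5 and slc3a2b, all lie on the lower side, while egr4 and nr0b2a on the higher side did not pass.

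The clearest change was in pik3r3a, which encodes a regulatory subunit that links PI3K to activated insulin and growth factor receptors. Its log2 intensity was 6.73, 6.63 and 6.32 in the control arrays, 5.26, 4.9 and 5.13 at 25 µg/L and 5.88, 5.58 and 5.45 at 250 µg/L. Every sertraline array lay below every control array, and the lower concentration gave the lower values. The pooled difference was -1.19 ± 0.12 (SE; 95% interval -1.45 to -0.93), a 2.28-fold fall with adjusted p = 0.00378. In RNA from whole larvae, fewer cells of a type and less of the transcript per cell cannot be told apart, here and for every gene below. The call held in each of the 9 fits that left out 1 array (adjusted p 0.00244 to 0.0324). It ended in 4 other settings: the 9 arrays fitted alone (0.0567), the GAPDH difference as a covariate (0.0523), a test against a fold of 1.5, and the fluoxetine 25 group and the second sertraline 250 array left out (0.117).

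Of the 41 measured genes of insulin, growth and energy sensing, pik3r3a was the 1 that passed, and the median difference of the list was -0.038 beside -0.03 over all probe sets. A further 4 members had an unadjusted p under 0.05, all of them lower, beside 3.83% of all probe sets lower and 1.68% higher. The related regulatory subunit pik3r1 differed by -0.39 (adjusted p = 0.589), with all 6 sertraline arrays below the controls. The insulin receptor substrate gene irs2a differed by -0.53 (adjusted p = 0.882). The growth factor gene igf1 differed by -0.23 (adjusted p = 0.283), at a dim probe set with a control mean of 2.98. The transcription factor gene foxo3b, which insulin signalling keeps out of the nucleus, differed by -0.23 (adjusted p = 0.813).

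The gene fkbp5 had the largest fall of the 3. Its product binds the Hsp90 complex of the glucocorticoid receptor and lowers its affinity for hormone, and the gene is itself switched on by the receptor. The control arrays were close together at 10.27, 10.18 and 10.28. At 25 µg/L the arrays read 8.4, 7.61 and 8.14, and at 250 µg/L they read 9.57, 8.98 and 8.58. All 6 sertraline arrays were lower than the controls and they spread more widely across both concentrations (SD 0.68, n = 6, against 0.056, n = 3). The pooled difference was -1.7 ± 0.22 (SE; 95% interval -2.18 to -1.21), a 3.24-fold fall with adjusted p = 0.0434. This call was close to the threshold and ended without any of the 3 arrays at 25 µg/L (adjusted p = 0.0502, 0.0846 and 0.121 without the first, the second and the third), the second array at 250 µg/L (0.11) or any of the 3 control arrays (0.107, 0.147 and 0.174). With the GAPDH difference as a covariate it was 0.178, while the difference itself lay between -1.83 and -1.58 in all of the fits that left out 1 array.

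Among the 30 measured glucocorticoid-responsive genes fkbp5 was the 1 that passed. The list had 2 members higher and 7 lower at an unadjusted p under 0.05, beside 1.68% and 3.83% of all probe sets, and its median difference was -0.1, with -0.22 at 25 µg/L and -0.06 at 250 µg/L. Next to fkbp5 stood klf9, a zinc finger transcription factor that glucocorticoids induce in fish and mammals. Its control arrays read 11.66, 11.47 and 11.58, those at 25 µg/L 10.53, 10.12 and 10.38, and those at 250 µg/L 11.26, 10.96 and 10.84. The groups did not overlap, and the difference of -0.89 ± 0.13 (SE; 1.85-fold) did not reach the threshold (adjusted p = 0.051), while with the replicate numbers as a block it passed (0.0342). It passed in 7 of 21 alternative settings, with only 1 of these among the 9 fits that left out 1 array. With the GAPDH difference as a covariate the adjusted p was 0.233. Other members moved less. The gene hsd11b2, whose enzyme inactivates cortisol, differed by -0.71 (adjusted p = 0.296), and tsc22d3, the leucine zipper gene known as GILZ in mammals, by -0.34 (adjusted p = 0.801). The NF-kB inhibitor gene nfkbiaa differed by 0.44 in the other direction (adjusted p = 0.449), and the highest difference in the list was 0.67. All 6 sertraline arrays lay above the controls in 3 members and below in 4, beside 0.884% and 2.63% of all probe sets. The array means of the list ran from 7.31 to 7.57 at 25 µg/L, 7.64 to 7.73 at 250 µg/L and 7.66 to 7.73 in control. The kinase gene sgk1 (-0.1), the gluconeogenic gene pck1 (-0.068) and the cochaperone gene fkbp4 (-0.045), which are also on the list, were near 0. The receptor gene itself, nr3c1, gave 0.032 at its brightest probe set.

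The last of the calls, slc3a2b, was the smallest in size. Its product (CD98 heavy chain in mammals) brings light chains such as the leucine transporter to the cell surface. Control arrays read 10.19, 10.17 and 9.99, against 9.56, 9.35 and 9.42 at 25 µg/L and 9.65, 9.5 and 9.82 at 250 µg/L. The groups did not overlap, and the arrays of the 2 concentrations overlapped each other. The difference was -0.57 ± 0.079 (SE; 95% interval -0.74 to -0.4), a 1.48-fold fall with adjusted p = 0.0476. Leaving out 1 array ended this call in 8 of 9 fits, with adjusted p = 0.053, 0.124 and 0.121 without the first, the second and the third array at 25 µg/L. It was 0.0832 and 0.11 without the first and second arrays at 250 µg/L, 0.145, 0.147 and 0.102 without each control array, 0.222 with the GAPDH covariate and 0.0658 with the replicate numbers as a block. The gene is listed here with the unfolded protein and integrated stress response, whose transcription factor ATF4 switches on amino acid transporter genes. Of the 39 measured members slc3a2b was the 1 that passed, the median was 0.011, and 1 member was higher and 5 lower at an unadjusted p under 0.05 (1.68% and 3.83% of all probe sets). Those near it in p were the chaperone gene pdia3 (0.25, adjusted p = 0.846), the amino acid transporter gene slc7a3a (-0.23, adjusted p = 0.888) and chac1, whose enzyme breaks down glutathione (-0.3, adjusted p = 0.889).

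**Figure D3:**
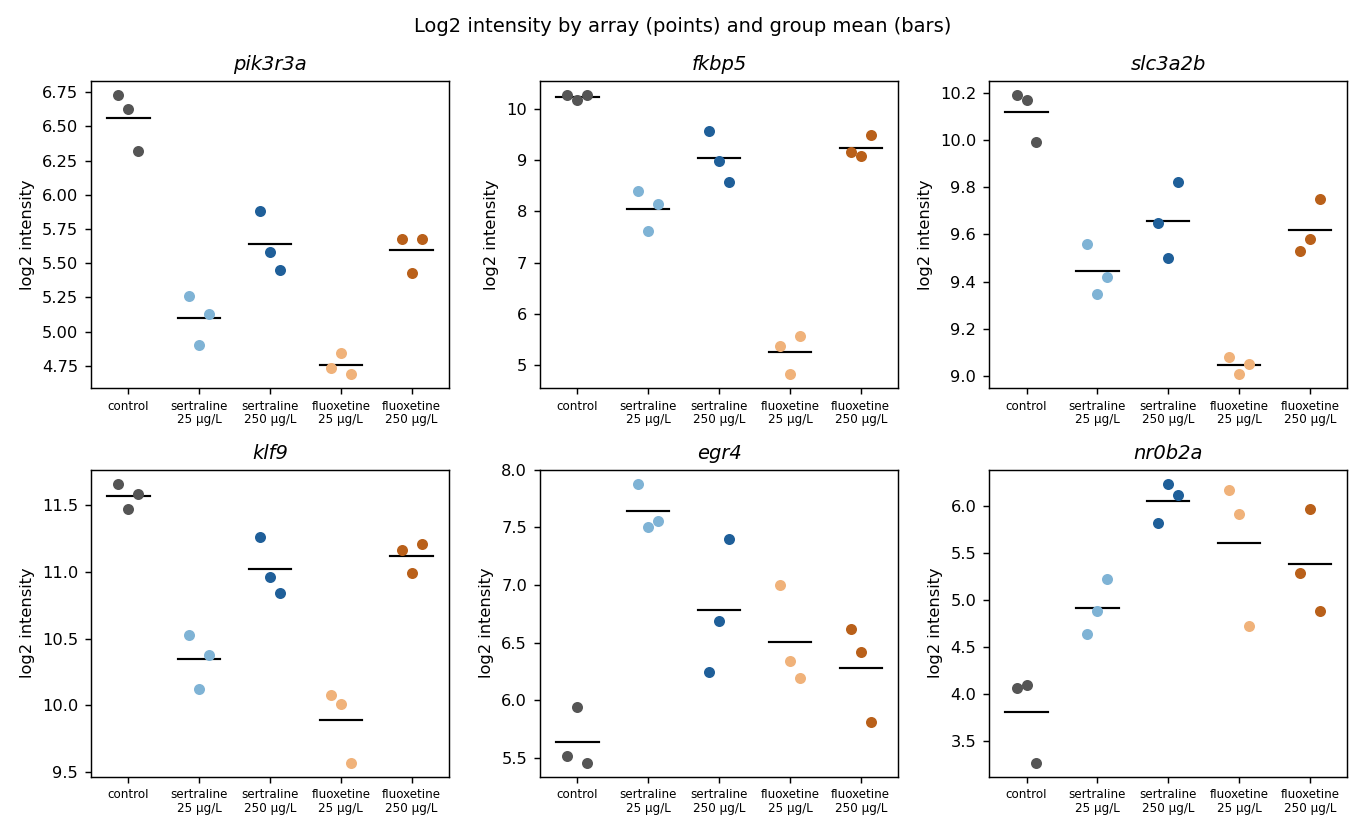
Log2 intensity in every array (points) and the group means (bars) for 6 genes in all 5 groups of the study. For pik3r3a, fkbp5, slc3a2b and klf9 the mean at 25 µg/L lies below that at 250 µg/L for each drug, while egr4 and nr0b2a, which did not pass, lie above control in all 6 sertraline arrays.

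The 20 genes with the smallest p in the pooled comparison were 17 lower and 3 higher, and 17 of them did not pass (adjusted p 0.051 to 0.235). They were chosen by that p, so the lack of overlap between groups in all 20 is a description. Of the 20, 11 differed by less than 1.5-fold and 4 by 2-fold or more. The gene pfkfb4b encodes an enzyme that sets the level of a metabolite which speeds glycolysis. It read 9.75, 9.64 and 9.71 in control, 8.24, 8.5 and 8.69 at 25 µg/L and 9.34, 9.34 and 8.72 at 250 µg/L, a difference of -0.9 ± 0.14 (SE; 1.86-fold, adjusted p = 0.107). The control arrays had an SD of 0.055 (n = 3), and the third array at 250 µg/L lay just above those at the lower concentration. The gene ulk1b, a kinase that starts autophagy, differed by -0.4 ± 0.074 (SE; adjusted p = 0.136). The gene tp53inp1, a p53-induced protein that takes part in autophagy, differed by -0.53 ± 0.093 (SE; adjusted p = 0.107). The mitochondrial malic enzyme gene me3 differed by -0.32 ± 0.064 (SE; adjusted p = 0.185), and the fatty acid elongation gene hsd17b12a by -0.51 ± 0.11 (SE; adjusted p = 0.226).

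The 3 higher genes were regulators of transcription or signalling, and none passed. The immediate early transcription factor gene egr4 read 5.52, 5.94 and 5.46 in control, 7.88, 7.5 and 7.56 at 25 µg/L and 6.25, 6.69 and 7.4 at 250 µg/L. The groups were apart, with the highest values at the lower concentration, and the difference was 1.57 ± 0.26 (SE; 2.97-fold, adjusted p = 0.107). The gene nr0b2a encodes the orphan nuclear receptor that in mammals holds back bile acid synthesis (SHP). It read 4.07, 4.1 and 3.27 in control, 4.64, 4.88 and 5.23 at 25 µg/L and 5.82, 6.24 and 6.12 at 250 µg/L. Here the higher concentration gave the higher values, and the difference was 1.68 ± 0.32 (SE; 3.2-fold, adjusted p = 0.148), while its other probe set gave 0.63 (adjusted p = 0.909). The gene socs3b, a cytokine-induced inhibitor of JAK-STAT signalling, read 4.43, 4.91 and 4.32 in control, 5.02, 5.03 and 4.92 at 25 µg/L and 5.29, 5.63 and 5.6 at 250 µg/L. Its lowest sertraline array was just above its highest control array, and the difference was 0.69 ± 0.12 (SE; 1.62-fold, adjusted p = 0.107).

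Among the 26 measured immediate early genes, which cells switch on within minutes of a stimulus, 0 passed, against 3 of all 15502 probe sets. At an unadjusted p under 0.05 there were 5 higher and 2 lower, beside 1.68% and 3.83% of all probe sets in those directions, and the median difference was 0.12. After egr4 came junbb (0.72, adjusted p = 0.449), ier2a (1.03, adjusted p = 0.538), fosab (1.03, adjusted p = 0.677) and the neuronal activity gene npas4a (0.65, adjusted p = 0.719). The members nr4a1 (-0.65, adjusted p = 0.773) and fosl2 (-0.4, adjusted p = 0.767) lay the other way. Each of these 7 was farther from control at 25 µg/L than at 250 µg/L, while the median of the whole list was 0.077 at 25 µg/L and 0.15 at 250 µg/L. In the list of innate immunity and inflammation 0 of 58 passed, with 7 higher and 2 lower at an unadjusted p under 0.05 (1.68% and 3.83% of all probe sets) and a median of -0.0. Beside socs3b and nfkbiaa these included the leukocyte genes lcp1 (0.49, adjusted p = 0.795) and coro1a (0.38, adjusted p = 0.83), both dim, with control means of 3.4 and 4.5.

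The remaining genes among the 20 lay lower and did not pass. The forkhead transcription factor gene foxg1b, a relative of the forebrain regulator foxg1a, read 9.79, 9.93 and 10.06 in control, 9.06, 8.88 and 8.89 at 25 µg/L and 9.24, 9.18 and 9.05 at 250 µg/L. The 6 sertraline arrays were tightly grouped below the controls (-0.88 ± 0.15, SE; 1.84-fold, adjusted p = 0.107). The gene nfil3-6, of the bZIP repressor family that works at the output of the circadian clock, read 10.38, 10.43 and 10.42 in control, 9.95, 9.83 and 9.75 at 25 µg/L and 10.03, 9.9 and 9.61 at 250 µg/L. It differed by -0.56 ± 0.11 (SE; adjusted p = 0.151), while its other, dimmer probe set gave -0.082. The annexin gene anxa4, whose product binds membranes in the presence of calcium, read 10.31, 10.45 and 10.31 in control, 9.83, 9.93 and 9.95 at 25 µg/L and 9.99, 9.83 and 9.87 at 250 µg/L. The difference was -0.46 ± 0.1 (SE; adjusted p = 0.23), and its other probe set gave 0.065. The prestin gene slc26a5, in mammals the motor protein of outer hair cells, differed by -0.49 ± 0.082 (SE; adjusted p = 0.107). Differences of -0.43 were found for stk40, a kinase-like protein (adjusted p = 0.138), and for rasgrp4, an activator of Ras (adjusted p = 0.148). The striated muscle gene xirp1, an actin-binding protein, differed by -0.61 ± 0.13 (SE; adjusted p = 0.235). The transcription factor gene cebpd differed by -0.28 ± 0.055 (SE; adjusted p = 0.172) at a dim probe set, and its bright probe set gave -0.22 (adjusted p = 0.909).

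Whether the concentrations differed was tested with the contrast of 250 µg/L minus 25 µg/L, which uses no control array. It called 0 of 15502 probe sets in limma (754, or 4.86%, at an unadjusted p under 0.05; smallest adjusted p 0.322). Set against control alone, 25 µg/L gave 10 calls (0.0645%), 1 higher (0.00645%) and 9 lower (0.0581%), and 250 µg/L gave 0 (983 at an unadjusted p under 0.05, 6.34%; smallest adjusted p 0.0651). These comparisons and the pooled one share the 3 control arrays. All 3 pooled calls were also calls at 25 µg/L, none was a call at 250 µg/L, and pooling added no gene that neither concentration alone had called. The other calls at 25 µg/L were klf9 (-1.23, adjusted p = 0.0107), pfkfb4b (-1.23, adjusted p = 0.0234), egr4 (2.01, adjusted p = 0.0402), ulk1b (-0.55, adjusted p = 0.0494), tp53inp1 (-0.68, adjusted p = 0.0494), bzw1b (-1.02, adjusted p = 0.0494) and 1 probe set with no gene symbol. The gene bzw1b, a regulator of translation start, had a difference of only -0.13 at 250 µg/L and a pooled difference of -0.57 (adjusted p = 0.392).

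Of the 20 genes, 15 were farther from control at 25 µg/L and 5 at 250 µg/L. The concentrations differed at an unadjusted p under 0.05 in 12 of the 20 and after adjustment in 0 (smallest adjusted p 0.381). The test of the concentrations shares the spread estimate of each probe set with the pooled test that chose the genes, so that count is not independent of the choice. For pik3r3a the difference was -1.46 at 25 µg/L and -0.92 at 250 µg/L, and the concentrations were 0.54 apart (95% interval 0.24 to 0.83, adjusted p = 0.49). For fkbp5 the values were -2.19 and -1.2, which is 0.99 apart (0.43 to 1.56, adjusted p = 0.494). For klf9 they were -1.23 and -0.55, or 0.68 apart (0.36 to 1.0, adjusted p = 0.381). For slc3a2b they were -0.68 and -0.46, or 0.22 apart (0.018 to 0.41, adjusted p = 0.973). The unadjusted intervals of these genes thus left out 0, with the smaller distance from control at the higher concentration. The gene socs3b ran the other way, with 0.44 at 25 µg/L and 0.95 at 250 µg/L (0.51 apart, 0.22 to 0.81), as did nr0b2a with 1.11 and 2.25 (1.14 apart, 0.34 to 1.95). The other probe set of nr0b2a gave 0.12 at 25 µg/L and 1.13 at 250 µg/L.

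In the other 8 of the 20 genes the interval of the difference between concentrations included 0. For nfil3-6 they were -0.57 and -0.56, and the interval of the difference between concentrations ran from -0.27 to 0.28. For anxa4 they were -0.45 and -0.46 (-0.25 to 0.23), and for rasgrp4 -0.42 and -0.44 (-0.22 to 0.19). For me3 they were -0.34 and -0.3 (-0.12 to 0.2). For cebpd they were -0.26 and -0.3 (-0.17 to 0.1) at its dim probe set, while its bright probe set gave -0.4 and -0.038. Wider intervals were found for hsd17b12a, at -0.55 and -0.47 (-0.19 to 0.35), stk40, at -0.49 and -0.38 (-0.094 to 0.31), and foxg1b, at -0.99 and -0.77 (-0.16 to 0.6). These intervals bound how far apart the concentrations could be at the confidence used and do not show that they acted alike.

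**Figure D4:**
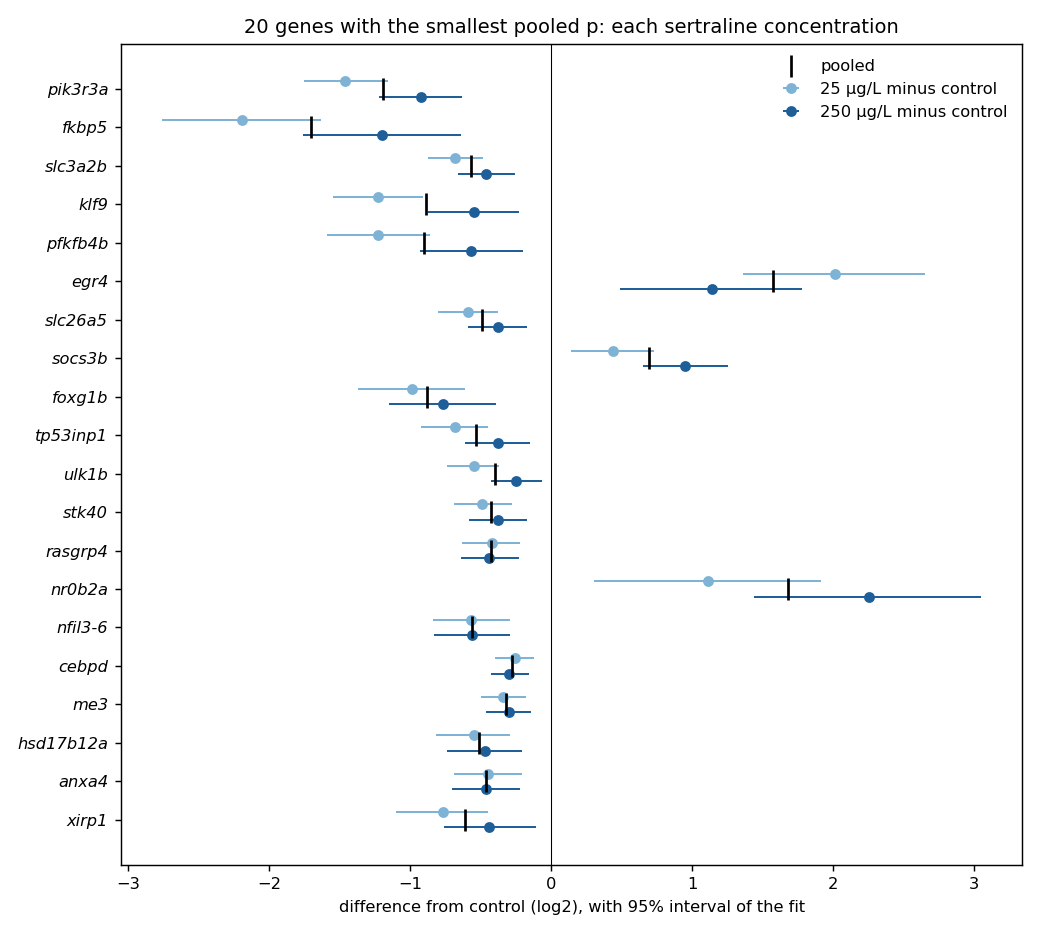
For the 20 genes with the smallest pooled p, the difference from control (log2, x axis) is drawn at 25 µg/L (light) and 250 µg/L (dark) with its 95% interval, and the pooled difference as a black tick. The light points lie farther from 0 for pik3r3a, fkbp5 and klf9, the dark points for socs3b and nr0b2a, and the points nearly coincide for nfil3-6, anxa4 and rasgrp4.

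Tissues and processes were described with 41 gene lists by counts and medians, beside a median of -0.03 over all probe sets. Of all 15502 probe sets, 5357 lay above 0 and 10145 below in the values as deposited. The split was not counted under other scalings, where the median was nearer 0 (-0.016 after median centring and -0.003 after quantile normalization). It covers all probe sets, while a list counts each gene by its brightest probe set. In 38 of the lists 0 members passed. The 2 lists with the highest medians were of digestive organs. The exocrine pancreas list (22 genes, such as the protease genes ela2l and prss1) had a median of 0.43 and 19 members above 0, yet no member with an unadjusted p under 0.05. Its mean per array was 5.3, 4.61 and 4.14 in control, 4.99, 4.68 and 5.4 at 25 µg/L and 5.24, 5.26 and 5.08 at 250 µg/L. The first control array was thus among the highest and the third the lowest of the 9, and the groups overlapped. The intestine and enterocyte list (30 genes) had a median of 0.19, with 0.1 at 25 µg/L and 0.52 at 250 µg/L, and 6 members higher and 0 lower at an unadjusted p under 0.05, where all probe sets had 1.68% and 3.83%. Its mean per array was 5.26, 4.91 and 4.77 in control, 5.16, 4.82 and 5.3 at 25 µg/L and 5.7, 5.66 and 5.64 at 250 µg/L. The arrays at 25 µg/L overlapped the controls and those at 250 µg/L lay above them.

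The intestinal members that led the list followed the same order. The chitinase gene chia.1 read 5.88, 4.93 and 4.51 in control, 6.01, 5.49 and 6.03 at 25 µg/L and 8.24, 8.13 and 8.15 at 250 µg/L. The arrays at 250 µg/L stood apart, and the pooled difference of 1.9 ± 0.43 (SE; adjusted p = 0.295) averaged 0.74 and 3.07. The concentrations were 2.33 apart (95% interval 1.25 to 3.41, adjusted p = 0.376). The fatty acid-binding gene fabp1b.1 had a pooled difference of 1.9 ± 0.5 (SE; adjusted p = 0.469), from 0.88 at 25 µg/L and 2.91 at 250 µg/L. The brush border genes alpi.2 (0.086 and 0.88) and vil1 (0.23 and 0.85) had the same order of concentrations. In the hepatocyte list (53 genes) the median was -0.13 at 25 µg/L and 0.47 at 250 µg/L, and in the yolk and lipoprotein list (21 genes) it was -0.029 and 0.31. The hepatocyte array means overlapped, at 5.82 to 6.37 in control and 6.3 to 6.75 at 250 µg/L. Those of the yolk list were 5.8 to 6.16 and 6.32 to 6.51. At a pooled unadjusted p under 0.05 the hepatocyte list had 0 higher and 0 lower and the yolk list 1 and 0 (1.68% and 3.83% of all probe sets). The apolipoprotein gene apoa1a gave 0.22 and 1.83 (pooled adjusted p = 0.909). For these lists the pooled value is a mean of unequal values and not a level that both concentrations shared.

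The lists with medians furthest below that of all probe sets were small in size too. After the glucocorticoid list came pituitary hormones and neuropeptides (30 genes), with a median of -0.075. Of its members 25 lay below 0, as did 10145 of all 15502 probe sets. At an unadjusted p under 0.05 it had 0 higher and 6 lower, beside 1.68% and 3.83% of all probe sets. Its members with the smallest p were the somatostatin-family gene sst6.1 (-0.52, adjusted p = 0.392), gnrh2, which encodes a gonadotropin-releasing hormone (-0.66, adjusted p = 0.713), and the neuropeptide gene adcyap1b (-0.33, adjusted p = 0.722). The appetite peptide gene npy differed by -0.24 (adjusted p = 0.888). The neuronal and synaptic list (51 genes) had a median of -0.067, with -0.016 at 25 µg/L and -0.12 at 250 µg/L. At an unadjusted p under 0.05 it had 0 higher and 2 lower, close to the shares of all probe sets (1.68% and 3.83%). The array means of that list ran from 8.42 to 8.55 in control, 8.4 to 8.53 at 25 µg/L and 8.31 to 8.41 at 250 µg/L. The myelin gene mbpa differed by -0.13 at 25 µg/L and -0.5 at 250 µg/L (pooled -0.32, adjusted p = 0.418).

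The serotonin system itself showed little at these signal levels. In the monoamine list, which includes the serotonin genes, 0 of 23 members passed, and the median was -0.022. At an unadjusted p under 0.05 there were 1 higher and 1 lower (1.68% and 3.83% of all probe sets). The lower gene was tph2, which encodes the enzyme that makes serotonin in neurons, at 4.78, 5.34 and 5.07 in control, 5.14, 4.9 and 4.59 at 25 µg/L and 4.45, 4.72 and 4.61 at 250 µg/L (-0.33, adjusted p = 0.817). Its arrays at 25 µg/L overlapped the controls. The higher gene was qdprb.1, which recycles the cofactor of that enzyme (0.16, adjusted p = 0.846), though its other probe set gave -0.23. The monoamine oxidase gene mao, whose enzyme breaks serotonin down, differed by 0.14 (adjusted p = 0.909). The mean of the list in control was 3.66, below the 3.898 under which 40% of all probe sets lie, so a change in many of these genes could go unseen. No probe set carried the symbol of a serotonin transporter gene. The stress axis and steroid synthesis list (24 genes) was as dim, with a mean of 3.56, 0 passed and a median of -0.042.

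**Figure D5:**
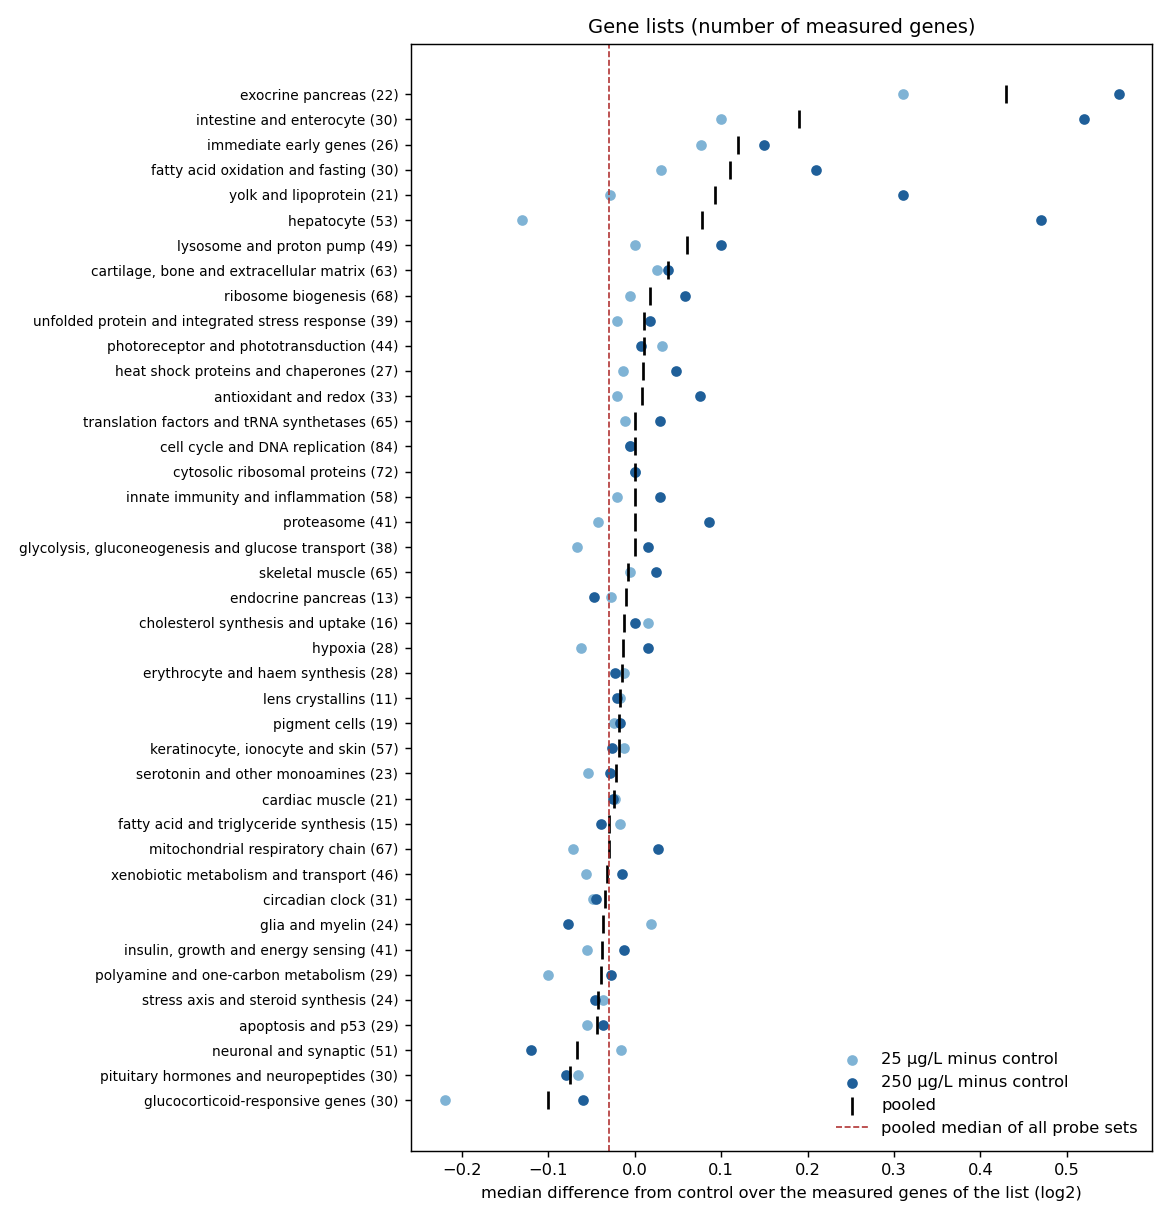
The median difference from control (log2, x axis) over the measured genes of each list is drawn for 25 µg/L (light), 250 µg/L (dark) and pooled (black tick), with the pooled median of all probe sets (-0.03) as a dashed line. The exocrine pancreas, intestine, hepatocyte and yolk lists have their dark points well to the right, and the glucocorticoid-responsive list has its light point farthest to the left.

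Most other lists lay closer to all probe sets. The cartilage, bone and extracellular matrix list (63 genes) had a median of 0.038, with 5 higher and 0 lower at an unadjusted p under 0.05 (1.68% and 3.83% of all probe sets), among them the cartilage collagen gene col9a3 (0.36, adjusted p = 0.619) and the matrix signalling gene ccn2a (0.36, adjusted p = 0.449). The fatty acid oxidation and fasting list (30 genes) lay farther off, with a median of 0.11 (0.03 at 25 µg/L and 0.21 at 250 µg/L). It had 23 members above 0 (5357 of all 15502 probe sets), and 3 higher and 2 lower at the same threshold. The cytosolic ribosomal proteins (72 genes), glycolysis and glucose transport (38 genes), skeletal muscle (65 genes) and cell cycle (84 genes) had medians between -0.008 and 0.0. The muscle differentiation gene myog read 3.63, 3.92 and 3.6 in control, 4.86, 4.34 and 4.42 at 25 µg/L and 4.86, 4.76 and 5.18 at 250 µg/L. Its groups did not overlap, and it did not pass (1.02 ± 0.23, SE; adjusted p = 0.286). The green cone opsin gene opn1mw2 differed by 0.79 ± 0.18 (SE; adjusted p = 0.296) with all 6 arrays above the controls, within a photoreceptor list (44 genes) whose median was 0.011.

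The same genes were set beside fluoxetine, another drug of the class, at the same nominal concentrations. The test of the mean of the sertraline groups minus the mean of the fluoxetine groups, without control arrays, called 703 probe sets (4.53%), 349 higher (2.25%) and 354 lower (2.28%) in sertraline (433 and 245 after median centring). Of the 20 genes, 6 differed between the drugs at an adjusted p under 0.05. The pooled test that chose the 20 uses the same sertraline arrays and spread estimates, so that count is not independent of the choice. The fluoxetine groups were also below control in the 3 genes that passed. The mean of the fluoxetine groups minus control was -1.38 for pik3r3a, -2.99 for fkbp5 and -0.79 for slc3a2b, beside -1.19, -1.7 and -0.57 in sertraline. These differences from control share the same 3 control arrays. The gene fkbp5 was 1.3 higher in sertraline than in fluoxetine as a mean over both concentrations (adjusted p = 0.00176). Its group means were 8.05 in sertraline and 5.25 in fluoxetine at 25 µg/L, but 9.04 and 9.25 at 250 µg/L. The gene thus owed the 1.3 to the lower concentration. Its arrays read 5.37, 4.82 and 5.56 at 25 µg/L fluoxetine and 9.17, 9.09 and 9.49 at 250 µg/L fluoxetine, so the lowest values of the gene were at the lower concentration of each drug. The genes hsd17b12a (0.95, adjusted p = 6.4e-05), anxa4 (0.74, adjusted p = 0.000185), nfil3-6 (0.62, adjusted p = 0.00197) and ulk1b (0.31, adjusted p = 0.0138) were also higher in sertraline, as was egr4 (0.81, adjusted p = 0.0486). For pik3r3a the drugs differed by 0.19 (95% interval -0.018 to 0.4, adjusted p = 0.218), and for slc3a2b by 0.22 (adjusted p = 0.074).

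The mean of the circadian clock list per array ran from 6.31 to 6.36 in control, 6.25 to 6.28 at 25 µg/L sertraline and 6.21 to 6.26 at 250 µg/L, and from 5.86 to 6.07 in fluoxetine. All 6 sertraline arrays were thus below the controls and above the fluoxetine arrays. Among the 41 lists such a gap between sertraline and control was rare in the rounded array means. Besides the clock list it was found only in the insulin, growth and energy sensing list and the immediate early list. Those lists hold pik3r3a and egr4, which were named by their small p in the same arrays. The insulin, growth and energy sensing list ran from 6.13 to 6.26 in sertraline and 6.3 to 6.34 in control. The immediate early list ran from 6.94 to 7.28 and 6.75 to 6.91. Of the 31 measured clock genes 0 passed between sertraline and control (0 higher and 5 lower at an unadjusted p under 0.05, beside 1.68% and 3.83% of all probe sets). The median of the clock list was -0.035, beside -0.03 over all probe sets. Between the drugs 11 were higher and 4 lower in sertraline at an adjusted p under 0.05, beside 2.25% and 2.28% of all probe sets. The genes named next are all from the 11, and the 4 are not named here. The light-induced period gene per2 differed from control by -0.11 in sertraline and was 1.9 higher than in fluoxetine (adjusted p = 8.6e-08). The cryptochrome gene cry2 differed from control by 0.017 and was 1.74 higher than in fluoxetine (adjusted p = 8.6e-08). The clock repressor gene ciarta differed from control by -0.26 (adjusted p = 0.817) and was 1.58 higher than in fluoxetine (adjusted p = 4.1e-07).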

How the data were processed

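The log2 values of 15 Affymetrix arrays were used as the authors deposited them, 1 value per probe set, with no further transformation. GCRMA and Partek are named in the submitters' processing notes, with no role or version given in the sources used here. Per the labels, 5 µg of total RNA was labelled. Of 15617 probe sets, 115 controls were set aside and 15502 tested; 10795 had 1 gene symbol, 135 several and 4572 none. Symbols came from the platform annotation, which can be old, checked by Entrez number against RefSeq (assembly GRCz12tu; 10711 matched, 1 updated). No build is named for the arrays, so no coordinate is given. The number of arrays limits the precision.

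In limma, the 5 group means were estimated from all 15 arrays (10 residual and 2.37 prior degrees of freedom), with Benjamini-Hochberg adjustment over all probe sets and a threshold of 0.05. The pooled contrast was the mean of both sertraline group means minus the control mean. Intervals are 95% intervals of this fit, not adjusted for multiple testing.

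Genes were named by rule: the 15 largest rises and falls that passed without overlap of the groups or, since fewer than 10 passed, the 20 smallest p; small passed changes; genes that differed between concentrations or drugs; and in each list up to 4 passed members or else the 2 of smallest p. Other list members, clock genes and tissue markers were named after their values were seen. A gene with several probe sets entered a list by its brightest. The members of the comparison, the 41 lists and the alternatives were chosen with earlier results of these data known. The alternatives were median centring, quantile normalization, a filter on the 40% dimmest probe sets, other variance priors, array weights, a fold threshold of 1.5, other sets of arrays, a replicate block, the GAPDH difference as a covariate and leaving out each array.

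Whether replicate numbers pair the groups was looked at in the data alone, by correlating deviations from the group means. Same-numbered arrays of the 2 concentrations gave 0.15, 0.18 and 0.14, and differently numbered ones -0.21 to 0.09. Between sertraline and control, same-numbered arrays gave -0.26 to -0.05 and differently numbered ones -0.15 to 0.28. The deviations within a group cancel out, so these correlations are not independent and do not show that beakers were paired. The code of the fit was tried on simulated data with independent noise and the same spread in every group. Those data lacked the RNA quality difference and the unequal spreads seen here, so the trial has no bearing on the calls. R 4.3.3, limma 3.58.1, Python 3.11.15, scipy 1.17.1 and matplotlib 3.10.9 were used.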

Additional observations from a re-analysis of the deposited data

Results flagged for a closer look

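Among 93 tests for an array far from the other 5 sertraline arrays, 5 exceeded Dixon's critical value of 0.625, and chance gives about 1 in 20. The second array at 250 µg/L was high for the 3' minus 5' difference of GAPDH (gap over range 0.711) and of acta1 (0.738). The other 3 were cyc1, a subunit of the respiratory chain, low in the second array at 25 µg/L (0.655), the claudin gene cldnf, low in the first array at 25 µg/L (0.692), and the fatty acid synthesis gene aclya, high in the first array at 250 µg/L (0.878).

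The mean of the sertraline groups differed from that of the fluoxetine groups in 20 of the genes that the naming rule gave. The threshold was an adjusted p under 0.05 in limma, which 703 of all 15502 probe sets (4.53%) passed. The rule ranked genes mainly by sertraline minus control, which uses the same sertraline arrays. The 20 are thus a listing and not a share to set against the 4.53%. Higher and lower are relative to fluoxetine here. Against control, abcf2a differed by -0.58 in sertraline and -1.86 in fluoxetine, and mcm5 by 0.3 and -0.4. Sertraline was higher by 1.3 for fkbp5, 0.81 for egr4, 0.31 for ulk1b, 0.62 for nfil3-6, 0.95 for hsd17b12a and 0.74 for anxa4. It was higher by 0.94 for the calcium-binding gene cabp5b, 1.58 for ciarta, 1.14 for the one-carbon gene mthfd2 and 0.44 for cbsb. Genes of growth and translation were higher by 0.29 for ccnd1, 0.71 for mcm5, 0.52 for eif4a1a, 1.27 for abcf2a, 0.32 for dkc1 and 0.33 for gnl3, and the haem synthesis gene alas2 by 0.31. Lower in sertraline were the cone opsin gene opn1mw2 (-0.59), the stress gene ndrg1b (-1.56) and the lens gene bfsp2 (-0.35). For fkbp5 the 1.3 came from 25 µg/L, since at 250 µg/L the group means were 9.04 in sertraline and 9.25 in fluoxetine.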

How the results depend on the processing

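The pooled count of 3 became 4 after median centring, 1 after quantile normalization, 12 without the 40% dimmest probe sets (5 higher), 5 with a trended and robust prior, 1 without moderated variances, 29 with array weights (8 higher) and 0 against a fold of 1.5. It was 2 in the 9 arrays alone, which kept 0 of the 3 genes and called foxg1b (lower) and the other probe set of nr0b2a (higher), 6 without the fluoxetine 25 group (2 higher), 0 with the GAPDH covariate and 0 without that group and the second sertraline 250 array, a setting chosen after seeing the data. Leaving out 1 array gave 1 to 6. The count of 0 between concentrations became 100 with array weights and 3 in the compared arrays alone. The 25 µg/L count of 10 became 4 after quantile normalization, 16 without dim probe sets, 1 without moderation, 25 with array weights, 0 against a fold of 1.5, 0 in the compared arrays alone, 4 with the GAPDH covariate, 3 in the added setting and 1 to 7 without 1 array. The 250 µg/L count of 0 became 8 without dim probe sets, 6 with the other prior, 28 with array weights, 2 in the compared arrays alone, 5 without the fluoxetine 25 group and 0 to 3 without 1 array. The count of 703 between the drugs became 18 against a fold of 1.5, 410 with the GAPDH covariate and 426 to 1299 without 1 array, the highest without the third fluoxetine 25 array. The GAPDH difference of 0.52 was 0.47 for acta1 (exact permutation p = 0.429). With a replicate block the pooled count was 3 (fkbp5, klf9 and pik3r3a), the 25 µg/L count 3, the 250 µg/L count 2, the count between concentrations 0 and that between drugs 628. Array weights favoured the third arrays at 25 µg/L (3.01) and at 250 µg/L (3.55). The cause of these shifts was not tested.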
